A study of Sus scrofa with 4 samples.

Results

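The genes described here mainly encode proteins of the extracellular matrix, the integrins that bind it and the families of proteases that cut it, measured in pig blastocysts. They were chosen by symbol: collagens, laminins, integrins, fibronectin, nidogens, perlecan, SPARC family members, thrombospondins, osteopontin, CD47, matrix metalloproteinases (MMP), their inhibitors (TIMP) and genes with ADAM or ADAMTS symbols. The rule took no measured value and gave 118 genes with 146 probes, of 10024 named genes and 43794 probes on the array. Of these, 2 were set apart as matched by spelling only: COL4A3BP, a ceramide transfer protein, and ITGBL1, a secreted protein with integrin-like repeats that is no integrin subunit. Both were kept under the rule and are described apart. The rule also took the ADAMTS-like genes ADAMTSL3, ADAMTSL4 and ADAMTSL5, which were not set apart and are counted with the ADAMTS genes.

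Blastocysts of the NEFA group grew from oocytes that had met much non-esterified fatty acid (NEFA), and those of the control group from oocytes without that exposure, per the labels. These are the free fatty acids of blood and follicular fluid. Total RNA came from pools of 10 blastocysts collected on days 7 and 8, and each of 4 two-colour arrays set NEFA RNA against control RNA. The design gives 4 pools without saying whether that is 4 per condition, so counting 1 pool of each condition per array, 8 in all, is an assumption here. NEFA RNA was labelled with Cy3 on arrays 1 and 2 and with Cy5 on arrays 3 and 4. The sources used here do not give the dose or length of the exposure, the breed or how the embryos were made. The labels call the arrays biological replicates but name no separate cultures or animals, so the p-values cover the spread between these arrays, which may be technical. RNA was amplified before labelling, and a pool mixes all cell types of the embryo.

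A basement membrane is a thin sheet built of laminin trimers and type IV collagen, bridged by nidogens and perlecan, and cells hold on to it through integrins, which are pairs of an alpha and a beta chain. In mammalian blastocysts the trophectoderm and the primitive endoderm rest on such sheets, and integrins of the trophectoderm meet fibronectin and osteopontin of the uterine lining in pigs. MMPs and many ADAM and ADAMTS proteins are enzymes that cut matrix and cell surface proteins, and TIMPs block such enzymes.

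Many members gave little signal, as did many other probes on the array. A probe counted as measured when it exceeded a limit, the mean plus 2 SD of 153 negative control spots measured on the same array in the same dye, for 3 or more pools of either condition. By that rule 51 of the 146 probes (34.9%) were measured, standing for 42 genes, against 43.4% of all named probes and 39.1% of all probes. Only 20 probes (13.7%), for 18 genes, exceeded the limit in all 8 pools, against 28.5% of named probes. At the other end, 40 probes (27.4%) exceeded it in no pool, near the 26% of all named probes. For 32 genes (27.1%) no probe exceeded it in any pool, against 22.9% of all named genes.

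No matrix gene passed the test for a difference between NEFA and control blastocysts. With limma, 0 of 17145 probes (0%) passed an adjusted p of 0.05, and every one of the 51 member probes had an adjusted p of 1.00. At an unadjusted p under 0.05 there were 2 of 51 member probes (3.92%), 1 each for CD47 and FN1, against 1.54% of all measured probes. Of the 42 genes, 22 had a log2 ratio of NEFA over control above 0 and 20 below, with a median of 0.0038. By the probe standing for each gene, 26 were measured through both conditions, 5 through NEFA pools alone and 11 through control pools alone. Selection through a single condition favours a ratio toward that condition, so the split and the median are a description only. Over all measured probes 48.4% lay above 0 and the median was -0.0065.

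Limits of the arrays touch all of these values. The median probe intensity was 289 to 436 in the Cy3 channel and 220 to 289 in the Cy5 channel, and the share of probes over the limit ran from 38.3% to 49.0% per channel. The member probes above it numbered 61, 63, 50 and 44 of 146 in the NEFA pools of arrays 1 to 4 and 49, 44, 51 and 71 in the control pools. No member spot was saturated or carried a scanner flag. Ratios of NEFA over control correlated below 0 over all probes for each pair of arrays of opposite orientation, most for arrays 1 and 3 (r = -0.36) and arrays 2 and 4 (r = -0.46). Within an orientation the correlations were -0.03 and 0.26. Over the measured probes alone they were -0.29 for arrays 1 and 3 and -0.54 for arrays 2 and 4, but 0.15 for arrays 1 and 4 and 0.01 for arrays 2 and 3, and -0.24 and 0.16 within an orientation. Directions below follow the labels, and the value with arrays 2 and 3 exchanged in orientation stands beside the ratios given array by array where it alters the sign or moves the value by more than the spread between arrays. Trophectoderm markers were measured for 8 of the 10 with a probe, and HAND1 and TEAD1 were not. Of the 8, 5 exceeded the limit in all 8 pools, GATA2, TFAP2C and CLDN4 among them. GATA3 and ELF5 were measured through the control pools alone, in 3 of them each against 2 and 0 NEFA pools. Primitive endoderm markers were measured for 4 of 6, and HNF4A and FOXA2 were not. Of the inner cell mass markers, 0 of 4 were measured (SOX2, KLF4, PRDM14 and SALL4), and POU5F1 and NANOG had no named probe.

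**Figure D1:**
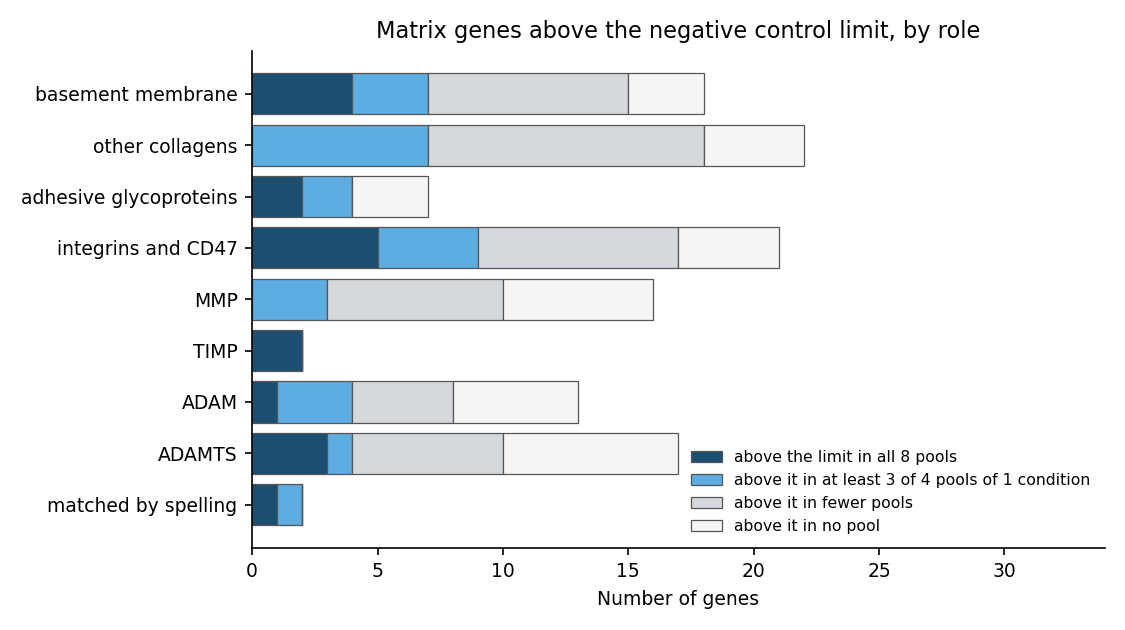
Number of member genes in each role, split by how many pools exceeded the negative control limit: all 8 pools, measured but not in all 8, in some pools only, or in no pool. Of the 18 genes seen in all 8 pools, the integrins with CD47 held 5 (of 21 in the role) and the basement membrane 4 (of 18). The fibrillar and other collagens held 0 (of 22) and the MMPs 0 (of 16).

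Among the 18 basement membrane genes, 7 were measured and 4 exceeded the limit in all 8 pools: LAMB1 and LAMC1, the beta and gamma chains shared by many laminin trimers, COL4A1, a chain of the main type IV collagen, and NID2, a nidogen. The LAMB1 signal was 16.0 to 29.0 times the limit. Its log2 levels were 12.12, 13.12, 12.54 and 12.47 in the NEFA pools of arrays 1 to 4 and 12.52, 12.69, 12.60 and 12.55 in the control pools. The NEFA pool of array 2 was the highest and that of array 1 the lowest, with the control pools between them. The log2 ratio was -0.02 ± 0.18 (SE, n = 4 arrays), with a 95% interval from -0.47 to 0.42.

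LAMC1 gave 9.49, 8.53, 8.59 and 8.96 in the NEFA pools and 9.32, 8.35, 8.49 and 8.90 in the control pools on the log2 scale. The NEFA pool was slightly higher on each array, by 0.17, 0.18, 0.11 and 0.06, while the levels differed more between arrays than between the channels of an array, and the groups overlapped widely. The fitted ratio was 0.13 ± 0.13, and -0.01 with arrays 2 and 3 exchanged. COL4A1 levels were 9.34, 9.24, 9.55 and 9.32 in NEFA and 9.32, 8.91, 8.92 and 9.97 in control pools. The NEFA pools lay close together inside the range of the control pools, and the ratios of 0.02, 0.33, 0.62 and -0.65 averaged 0.08 ± 0.24. Without array 4 the COL4A1 ratio was 0.40, without array 3 it was -0.24, and with arrays 2 and 3 exchanged it was -0.40.

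NID2, which binds laminin and type IV collagen, had levels of 9.70, 10.00, 9.84 and 9.71 in NEFA pools and 9.73, 9.93, 10.21 and 10.20 in control pools. Both control pools labelled with Cy3 were the highest, and the other pools overlapped. Its ratio was -0.21 ± 0.13, with an interval from -0.54 to 0.13. COL4A5, LAMA4 and LAMC3 were measured near the limit, with ratios of 0.06, 0.12 and 0.01. LAMA4 was measured through its NEFA pools alone, a selection that favours a ratio above 0, and LAMC3 through its control pools alone. COL4A2, the usual partner of COL4A1, exceeded the limit in 2 pools of each condition and HSPG2, perlecan, in 2 NEFA pools and 1 control pool, so neither was measured. NID1 exceeded it in no pool, and LAMA1, the alpha chain of the early embryonic laminin in mouse, had no named probe.

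**Figure D2:**
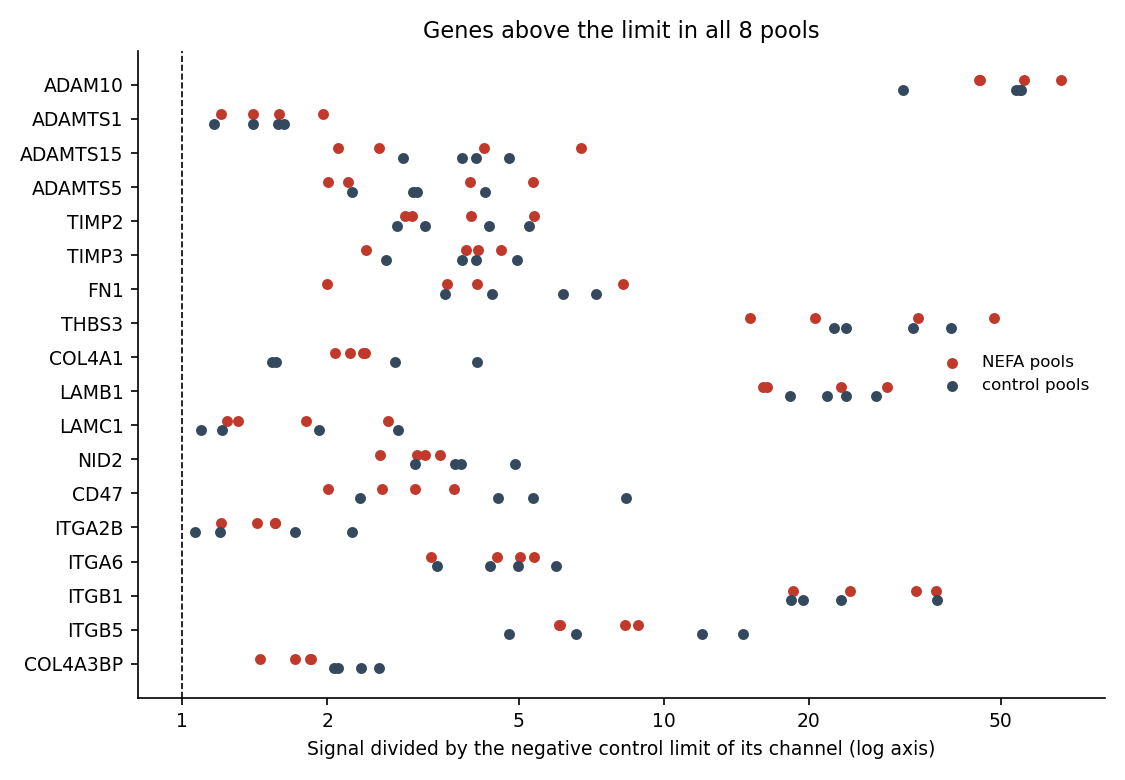
Signal of the 18 genes above the limit in all 8 pools, divided by the negative control limit of its array and channel (log axis, dashed line at 1), with 1 point per pool, in red for NEFA and dark blue for control. ADAM10 ran from 31.4 to 66.7 times the limit, LAMC1 and ITGA2B stayed within 3 times it, and the colours overlap in every row except COL4A3BP. Signals of different probes are not compared with each other.

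The other collagens were dim. Of 22 genes, 7 were measured and 0 exceeded the limit in all 8 pools, and the 7 ranged from 0.725 to 1.63 times the limit. COL1A1, a chain of the type I collagen of connective tissue, was measured through the control pools alone, in 3 of them against 1 NEFA pool, with a ratio of -0.03 ± 0.13. COL1A2, its partner chain, exceeded the limit in 1 NEFA pool and was not measured.

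COL14A1, a collagen attached to the surface of fibrils, exceeded the limit in 3 NEFA pools and in 0 of the control pools. Its levels were 8.30, 8.07, 8.19 and 8.52 in NEFA pools and 7.95, 7.98, 8.08 and 7.71 in control pools. The groups overlapped only at their edges, where the lowest NEFA pool lay just under the highest control pool. Because the control pools were not above background, their dim signal was raised to background, which gave a floored fold of 1.19 in NEFA over control. This is an estimate and no lower limit. The limma fit was 0.34 ± 0.17, with an interval from -0.09 to 0.77 that holds 0, at an adjusted p of 1.00. COL14A1 was measured through its NEFA pools alone, a selection that favours a ratio above 0. The floored fold rests on the mean over all arrays. The measured ratios were 0.35, 0.09, 0.11 and 0.81, and without array 4 the fitted ratio was 0.17. COL11A2, a chain of a cartilage collagen, was measured in 3 NEFA pools and 1 control pool. Its ratios of 0.41, 0.16, 0.05 and 0.09 had the same sign on each array, with a fit of 0.18 ± 0.14. The ratios of COL11A1, COL13A1, COL21A1 and COL27A1 were 0.01, 0.16, -0.03 and -0.0032. COL13A1, like COL14A1 and COL11A2, was measured through its NEFA pools alone, and COL11A1 and COL27A1 through their control pools alone.

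Of the 7 adhesive glycoproteins, 4 were measured: FN1, THBS1, THBS3 and THBS4. FN1 encodes fibronectin, the ligand of several integrins, and its probes disagreed. The brightest, at spot 960, had log2 levels of 9.08, 11.27, 10.32 and 10.06 in NEFA pools and 10.43, 10.14, 10.47 and 10.77 in control pools. The NEFA pools of arrays 1 and 2 were the lowest and the highest of all 8, with the control pools close together. Its ratios were -1.36, 1.13, -0.16 and -0.72, with a fit of -0.27 ± 0.40. Without array 1 the ratio was 0.35 and without array 2 it was -0.90. With arrays 2 and 3 exchanged it was -0.76, at a limma adjusted p of 0.060.

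The FN1 probe at spot 17690 gave 10.47, 10.77, 10.24 and 9.95 in NEFA pools and 9.84, 10.39, 9.83 and 9.89 in control pools. The NEFA pool was the higher on each array, although the groups overlapped. Its ratio was 0.37 ± 0.15, with an interval from 0.01 to 0.74, an unadjusted p of 0.046 and an adjusted p of 1.00 in limma, and -0.02 with arrays 2 and 3 exchanged. The mean over both measured FN1 probes was 0.05, and a further FN1 probe exceeded the limit in no pool. The ratio of the brightest FN1 probe was highest on array 2 and then on arrays 3, 4 and 1. Several genes shared this order: the members LAMB1 and ITGB5, and CD9 (-0.94, 1.18, 0.21 and -0.32) and LOXL4 (-1.17, 0.48, -0.06 and -0.77). VIM, an intermediate filament gene of mesenchymal cells, had it too, at -1.83, 2.06, 0.27 and -0.53. The share of all measured probes with this order was not counted, so the shared order is a description and ties these genes to no cell type. VIM stood in a list of 8 fibroblast markers with a probe, of which 3 were measured (COL1A1, DCN and VIM) and COL1A2, LUM, THY1, PDGFRB and POSTN were not. DCN, at 0.19, 0.49, 0.17 and -0.73, and COL1A1, at -0.20, -0.14, 0.16 and 0.07, had other orders than VIM. The summed signal of the measured 3 was 1272 to 2937 in NEFA pools and 1184 to 2506 in control pools, and its part in the FN1 values was not tested.

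THBS3, a thrombospondin, was singled out after its values were seen. Its signal was 15.1 to 48.5 times the limit, with log2 levels of 13.18, 12.64, 12.45 and 13.49 in NEFA pools and 12.75, 13.55, 12.90 and 12.55 in control pools. The NEFA pool was brighter on arrays 1 and 4 and dimmer on arrays 2 and 3, so the groups overlapped throughout. The ratios were 0.42, -0.90, -0.46 and 0.94, and the fit was 0.0014 ± 0.32. With arrays 2 and 3 exchanged the THBS3 ratio was 0.68 at a limma adjusted p of 0.017, the only member called there (1 of 51, or 1.96%, against 6.96% of all measured probes). With arrays 1 and 4 exchanged in their place it was -0.68, so the exchange fixes no direction. ADAMTS15 and ADAMTS5, described below, shared this order over arrays.

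THBS1, which binds CD47 and activates latent TGF-beta, was near the limit at 0.942 to 1.22 times it, with ratios of -0.30, 0.01, 0.29 and -0.19 and a fit of -0.05 ± 0.16. THBS4 had a ratio of 0.21 ± 0.18. SPP1, osteopontin, exceeded the limit in no pool, and neither did THBS2 or SPARCL1. SPARC itself had no named probe.

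By count, the receptors held more genes seen in all 8 pools than any other role, but the roles differ in size. Of 21 genes, 20 integrin subunits and CD47, 9 were measured and 5 exceeded the limit in all 8 pools. Elsewhere it was 4 of 18 basement membrane genes, 2 of 7 adhesive glycoproteins, 2 of 2 TIMP, 3 of 17 ADAMTS and 1 of 13 ADAM genes. Counted by probe, which differs from these counts by gene, the share was 13.7% of member probes and 28.5% of all named probes. ITGB1 is the beta chain shared by most matrix-binding integrins, and its signal was 18.3 to 37.0 times the limit. Its log2 levels were 13.29, 12.86, 12.74 and 12.97 in NEFA pools and 12.90, 12.45, 12.69 and 12.52 in control pools. The NEFA pool was higher on each array, but the groups overlapped because the control pool of array 1 was above 2 of the NEFA pools. The ratios were 0.39, 0.41, 0.05 and 0.45, and the fit was 0.32 ± 0.15 with an interval from -0.04 to 0.69 and an adjusted p of 1.00. With arrays 2 and 3 exchanged the ITGB1 ratio was 0.10.

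ITGA6 pairs with ITGB1 or ITGB4 to bind laminin. Its levels were 10.41, 10.65, 10.21 and 10.19 in NEFA pools and 10.10, 10.09, 10.47 and 10.49 in control pools. The ratio split by dye: the Cy3 pool was the brighter on all 4 arrays, so NEFA was higher on arrays 1 and 2 and lower on arrays 3 and 4. Its ratios were 0.31, 0.56, -0.26 and -0.30, and with the dye term the fit gave 0.08 ± 0.14, or -0.07 with arrays 2 and 3 exchanged. ITGB4 exceeded the limit in 1 pool of each condition and ITGA5, the fibronectin receptor chain, in 1 control pool, so neither was measured, and ITGAV had no named probe.

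ITGB5, a beta chain that pairs with ITGAV to bind vitronectin, had levels of 11.11, 10.83, 11.13 and 11.08 in NEFA pools and 11.61, 10.58, 11.09 and 11.49 in control pools. The NEFA pools lay within the range of the control pools. Its ratio was -0.15 ± 0.18, and 0.03 without array 1. ITGA2B, known as the platelet integrin alpha chain, was 1.06 to 2.25 times the limit with a ratio of -0.01 ± 0.22. The ratios of ITGA2, ITGA9, ITGB3 and ITGB7, all near the limit, were -0.03, 0.03, 0.0062 and -0.27. ITGA2 was measured through its NEFA pools alone, and ITGA9 and ITGB3 through their control pools alone.

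CD47, a surface protein that associates with integrins, binds THBS1 and signals through SIRPA on phagocytes, was the only member gene past 1.5-fold. At its brightest probe the log2 levels were 9.94, 9.21, 9.86 and 9.63 in NEFA pools and 10.83, 9.54, 10.51 and 10.32 in control pools. The NEFA pool was the lower on each array, by 0.89, 0.33, 0.65 and 0.69 on the log2 scale, yet the groups overlapped because the control pool of array 2 was below 3 of the NEFA pools. The limma fit gave a ratio of -0.64 with an interval from -1.03 to -0.25, an unadjusted p of 0.0074 and an adjusted p of 1.00. The other measured CD47 probes gave -0.23 (spot 15321), where array 1 alone was far below 0 at -1.27, and 0.10 (spot 45163). Spot 15321 was measured through its control pools alone and spot 45163 through its NEFA pools alone. The mean over the 3 probes was -0.25, and the brightest probe gave -0.15 with arrays 2 and 3 exchanged. In a pool, fewer cells of a type and less RNA per cell cannot be told apart.

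**Figure D3:**
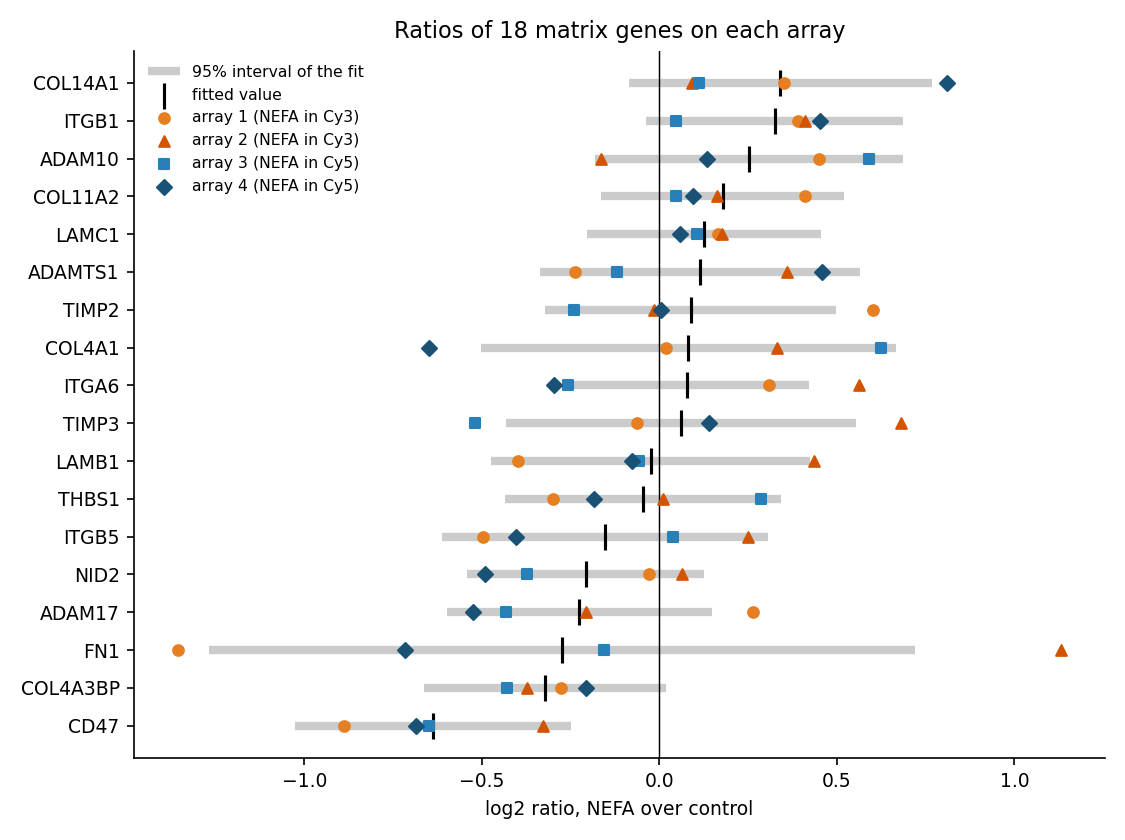
Log2 ratio of NEFA over control on each array for 18 genes, those of the fixed panel or with the same sign on 4 of 4 arrays, with circles and triangles for NEFA in Cy3, squares and diamonds for NEFA in Cy5, a black bar for the limma fit and a grey bar for its 95% interval. Only the interval of CD47 leaves out 0, and the 4 points of FN1 spread from -1.36 to 1.13.

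The MMPs had the lowest share of measured genes of any role, 18.8%. Of 16 MMP genes, 3 were measured, 0 exceeded the limit in all 8 pools and 6 exceeded it in none. MMP2, a gelatinase, and MMP14, the membrane-bound enzyme that activates it, exceeded the limit in no pool, and MMP9, the other gelatinase, did so in 1 NEFA pool. The measured genes were MMP12, MMP3 and MMP7, between 0.77 and 2.43 times the limit, with ratios of -0.29 ± 0.15, -0.03 ± 0.15 and 0.05 ± 0.13. MMP12 and MMP3 were measured through the control pools alone, in 3 of them against 2 NEFA pools, a selection that favours a ratio below 0. The 2.43 was the MMP12 control pool of array 4, and no other MMP12 pool exceeded 1.32. MMP12 is known as macrophage elastase. The leukocyte marker PTPRC was measured in 2 NEFA and 3 control pools and CD3E, CD14 and LYZ were not measured.

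Both TIMP genes with a probe, TIMP2 and TIMP3, exceeded the limit in all 8 pools, at 2.80 to 5.38 and 2.41 to 4.97 times it. TIMP2, which blocks MMPs and also takes part in activating MMP2, had levels of 10.50, 9.80, 10.51 and 9.61 in NEFA pools and 9.90, 9.81, 10.75 and 9.60 in control pools. NEFA was higher on array 1, by 0.60, and lower on array 3, at -0.24, and the channels of arrays 2 and 4 hardly differed. The fit was 0.09 ± 0.17, and -0.07 without array 1. TIMP3, which binds matrix and also blocks ADAM17, had levels of 10.03, 10.42, 9.75 and 10.07 in NEFA pools and 10.09, 9.74, 10.26 and 9.93 in control pools. NEFA was clearly higher on array 2 and lower on array 3, and the fit was 0.06 ± 0.20, or -0.02 with arrays 2 and 3 exchanged. TIMP1 had no named probe.

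Of the 13 ADAM genes, 4 were measured. ADAM10, the sheddase of Notch receptors and cadherins, had log2 levels of 13.92, 13.81, 13.95 and 13.99 in NEFA pools and 13.47, 13.97, 13.36 and 13.85 in control pools. The NEFA pools lay close together, and the control pools were more spread, with those of arrays 2 and 4 inside the NEFA range and the others below it. The ratios were 0.45, -0.16, 0.59 and 0.13, with a fit of 0.25 ± 0.17 and an interval from -0.18 to 0.69. ADAM17, the sheddase of TNF and EGF receptor ligands, was above the limit in 1 NEFA pool and 3 control pools. Its levels were 8.35, 8.04, 8.11 and 7.83 in NEFA pools and 8.08, 8.25, 8.54 and 8.36 in control pools. NEFA was higher on array 1 and lower on the other arrays, with a fit of -0.23 ± 0.15, and 0.09 with arrays 2 and 3 exchanged. ADAM17 was measured through its control pools alone, a selection that favours a ratio below 0. ADAM9 and ADAM15 had ratios of -0.01 and -0.03, each at a probe measured through its control pools alone.

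The 17 ADAMTS genes include the ADAMTS-like ADAMTSL3, ADAMTSL4 and ADAMTSL5, which were not measured. Of the 17, 4 were measured and ADAMTS1, ADAMTS5 and ADAMTS15 exceeded the limit in all 8 pools. All 3 can cut the proteoglycans aggrecan or versican. ADAMTS1 levels were 8.33, 8.83, 8.82 and 9.09 in NEFA pools and 8.56, 8.47, 8.94 and 8.63 in control pools, with the lowest and the highest pool both NEFA. Its ratio was 0.11 ± 0.18, -0.04 without array 2 and -0.0055 with arrays 2 and 3 exchanged. ADAMTS19, near the limit, had a ratio of 0.05.

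ADAMTS5 and ADAMTS15 were singled out after their values were seen. ADAMTS15 had ratios of 0.34, -0.68, -0.31 and 0.59, and ADAMTS5 of 0.18, -0.59, -0.04 and 0.96. Both were higher in NEFA on arrays 1 and 4 and lower on arrays 2 and 3, as THBS3 was, and the fits were -0.02 ± 0.24 and 0.13 ± 0.23. With arrays 2 and 3 exchanged they were 0.48 and 0.44, at limma adjusted p of 0.055 and 0.088. This order, highest on array 4 and then on arrays 1, 3 and 2, was not particular to any cell type marker. It was seen in the trophectoderm marker TFAP2C (0.48, -0.48, 0.36 and 0.51) and in the adhesion complex gene ACTN1 (0.42, -0.16, 0.04 and 0.99). The member COL14A1 had it too, as did AMH, a hormone of granulosa cells, at 0.72, -1.46, -0.39 and 1.40. For this order too, the share of all measured probes that have it was not counted, so the matches are a description only. AMH was 1 of 2 cumulus and granulosa markers measured of 5 with a probe (AMH and FST, with INHBA, PTX3 and AMHR2 not measured). FST, which encodes follistatin, had another order, at -0.98, -0.21, 0.15 and -0.82. Their summed signal was 4213 to 12722 in NEFA pools and 5397 to 9747 in control pools, and its part in the THBS3 and ADAMTS values was not tested.

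The genes set apart as matched by spelling only were both measured. COL4A3BP moves ceramide, a sphingolipid, from the endoplasmic reticulum to the Golgi. At its brightest probe the log2 levels were 8.96, 8.97, 8.92 and 8.99 in NEFA pools and 9.24, 9.34, 9.35 and 9.19 in control pools. All 4 NEFA pools lay below all 4 control pools, the only member probe without overlap (1 of 51, or 1.96%, against 1.17% of all measured probes). The ratio was -0.32 ± 0.14 with an interval from -0.66 to 0.02 and an adjusted p of 1.00. Its other probe gave 0.12, and with arrays 2 and 3 exchanged the brightest probe gave 0.08. ITGBL1 had a ratio of -0.05 at its brightest probe and 0.12 at the other.

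**Figure D4:**
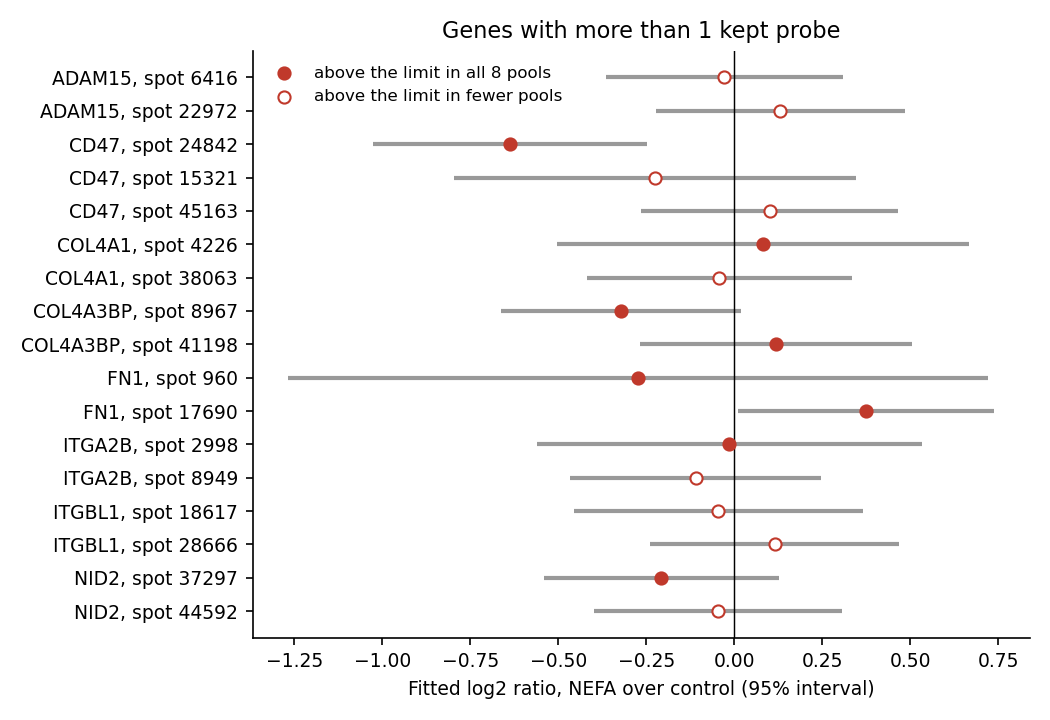
Log2 ratio of NEFA over control with its 95% interval for each measured probe of the 8 genes with several, filled for probes above the limit in all 8 pools and open for those above it in fewer. Probes of ADAM15, CD47, COL4A1, COL4A3BP, FN1 and ITGBL1 lie on both sides of 0, and those of ITGA2B and NID2 lie below it.

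Of the 8 genes with more than 1 measured probe, 6 had ratios of both signs. The same share over all genes with several measured probes was not counted, so this describes these genes alone. Of the 51 member probes, 7 (13.7%) had the same sign on 4 of 4 arrays, 5 higher and 2 lower in NEFA, against 7.82% of all measured probes. The 5 higher were COL14A1, COL11A2, LAMC1, ITGB1 and the FN1 probe at spot 17690, and the 2 lower were CD47 and COL4A3BP at their brightest probes. COL14A1 and COL11A2 were measured through their NEFA pools alone, so the count and its split by direction are a description and support no difference.

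The 95% interval of a member gene reached a median of 0.40 on the log2 scale, or 1.32-fold, to each side of its ratio. It lay within 2-fold in both directions for 40 of the 42 genes, the exceptions being CD47 and FN1, and within 1.5-fold for 27. The intervals of 41 genes held 0. The median size of the ratio was 0.072 for the member genes and 0.11 for all measured probes. Among the 18 genes above the limit in all 8 pools, 10 ratios were above 0 and 8 below, from -0.64 to 0.32, with a median of 0.03. The offset used in background correction pulls ratios of dim probes toward 0, so the narrow intervals of genes near the limit say less than those of bright genes.

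**Figure D5:**
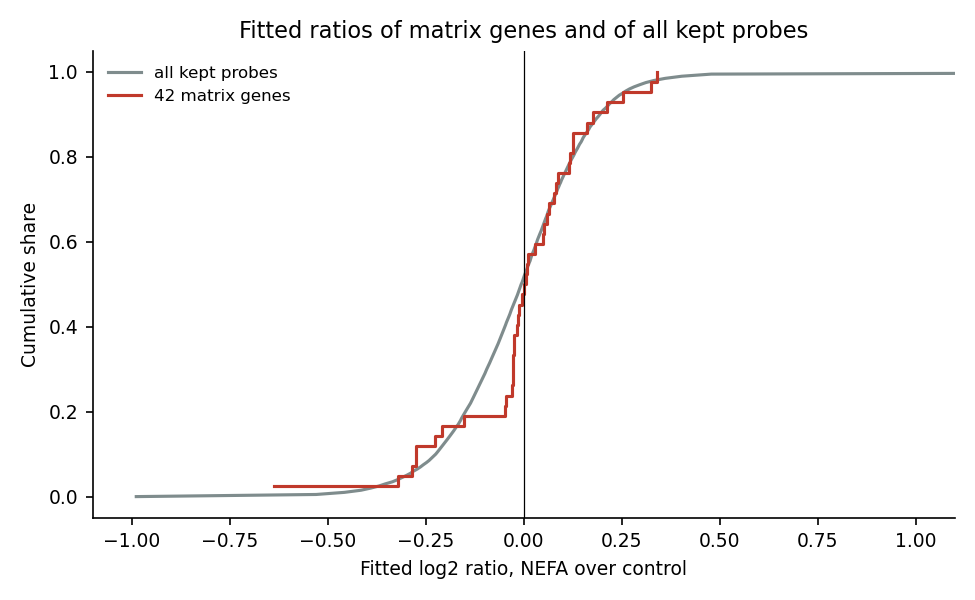
Cumulative share of log2 ratios of NEFA over control for the 42 measured member genes and for all 17145 measured probes, which reach 2.34, beyond the end of the axis. Both curves cross the middle near 0, at 0.0038 for the members and -0.0065 for all probes, and CD47 is the member farthest to the left.

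Genes that work beside the members were given by lists. Of 16 adhesion complex genes with a probe, which link integrins to actin, 8 were measured, 5 above 0 and 3 below, with the smallest p for ACTN4, an actin crosslinker, at 0.38 ± 0.18. Collagen-processing enzymes were measured for 4 of 17, 2 on each side of 0, and PPIB, a prolyl isomerase, had the smallest p at -0.20 ± 0.15. Proteoglycans and other matrix genes were measured for 9 of 27, 5 above 0 and 4 below, and GPC3, a glypican, had the smallest p at 0.15 ± 0.14. GPC3 was measured through its NEFA pools alone, in 3 of them against 1 control pool, a selection that favours a ratio above 0. Plasmin and other protease genes were measured for 5 of 16, 3 above 0 and 2 below, led by PLAU, the urokinase that activates plasminogen, at -0.30 ± 0.14. In these lists 0 genes passed the adjusted threshold of 0.05 and 0 had an unadjusted p under 0.05 in limma. SIRPA, the receptor for CD47, had no named probe.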

How the data were processed

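Total RNA from blastocyst pools was amplified with RiboAmp and labelled with Cy3 or Cy5 by a chemical that binds guanine, per the labels' protocols. The deposited scanner files hold raw median intensity of each spot and its local background in both channels, per the file headers. The authors' deposited table holds log2 ratios. Set against the scanner values (r = 0.964 to 0.990), its direction was Cy5 over Cy3 on each array and its scale log2, with column medians of -0.020, -0.023, -0.022 and -0.023. Its centring stays unknown. Limma is named in the submitters' processing notes without a version.

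Here intensities were corrected with normexp (offset 50) and normalised by loess within arrays in limma 3.58.1 under R 4.3.3, with the 1426 control spots at weight 0 in loess. Limits were set on normexp intensities. Log2 ratios, turned so that NEFA stands over control, were fitted with a dye intercept and a NEFA term (2 residual and 3.67 prior degrees of freedom), with eBayes and Benjamini-Hochberg adjustment over 17145 probes. P-values are two-sided, and SEs, intervals and p-values for single probes come from this limma fit. Levels per pool are log2 intensities per channel after loess and Aquantile scaling. A floored fold compares the brighter condition's mean with, on each array, whichever is higher of the dim signal and the lowest one above background. A gene stands for its measured probe with the highest mean intensity.

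Gene names came from the platform annotation. All 118 symbols were found in the current pig table (Sscrofa11.1), used for names only. Values on each array were given for a fixed panel of matrix genes where measured and for genes with the same sign on 4 of 4 arrays, 18 in all, and also for THBS3, ADAMTS5 and ADAMTS15, chosen after their values were seen. The members, lists and rules were chosen with earlier results of these data known. The fit was tested on simulated data. Alternatives covered background correction, normalisation, the limit, the dye term, array orientation, the deposited log2 ratios, probe averaging and each array left out. The exchange of arrays 1 and 4 was added after seeing the data. The number of arrays limits the precision.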

Additional observations from a re-analysis of the deposited data

Results flagged for a closer look

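ITGB1 on array 3 stood apart from the other arrays. Its log2 ratio of NEFA over control there was 0.046, against 0.39 to 0.45 on the other 3 arrays, and this gap took up 0.84 of the whole range, more than Dixon's test allows for 4 values. Chance gives such a gap in about 1 in 20 groups, and 18 genes were examined. Without array 3 the ITGB1 ratio was 0.43, with an adjusted p still above 0.05.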

How the results depend on the processing

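Of all 17145 probes, 1 passed the adjusted threshold with background subtraction, 2 in the authors' deposited log2 ratios and 1193 with arrays 2 and 3, or 1 and 4, exchanged, against 0 in the other settings run. Among members only THBS3 was called, in that exchange and its mirror. The measured member genes numbered 18 when all 8 pools were required and 25 with a limit at the mean plus 3 SD, against 42. They numbered 49 with a limit at the highest 5% of negative controls, and 34 and 37 without background correction and with subtraction. With 1 array left out they numbered 29 to 31, but all 3 remaining pools of a condition then had to exceed the limit, a stricter rule. The members' median stayed between -0.029 and 0.032. Of the 18 genes named by rule, 10 kept their sign whichever array was left out and 8 did not (ADAMTS1, COL4A1, FN1, ITGB5, LAMB1, THBS1, TIMP2 and TIMP3). THBS3, ADAMTS5 and ADAMTS15 changed sign too, from -0.35 to 0.35, -0.13 to 0.38 and -0.27 to 0.24. Of the 18, signs changed for 2 without background correction (THBS1 and TIMP3) and 3 with median centring (ITGA6, TIMP2 and TIMP3). They changed for 1 in the deposited ratios (THBS1) and 1 with probe averaging (FN1, from -0.27 to 0.05). The exchange of arrays 2 and 3 changed 7 signs and that of arrays 1 and 4 changed 11. Median centring moved the median of all probes to -0.034. The ratios already pair the RNAs of an array, and no further block was fitted. Dim signal limits most members: 24 of the 42 measured genes were below the limit in at least 1 pool, so a ratio near 0 there does not show that a gene did not change.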
